A study of Mus musculus with 16 samples.

Results

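A set of 10 genes of the interferon-inducible GTPase families were examined in tumor RNA from mice with MC38 liver metastasis: the guanylate-binding protein genes Gbp2, Gbp3, Gbp4, Gbp5, Gbp6 and Gbp7, and the immunity-related GTPase genes Irgm1, Irgm2, Igtp and Iigp1. They were chosen by name, with earlier results of these data known. All 10 were found among the 21959 genes listed in every mouse and passed the filter on low counts. MC38 is a colon adenocarcinoma cell line of C57BL/6 origin, and the cells were injected into the spleen to seed the liver of wild-type male C57BL/6 mice at 6 weeks of age. There were 16 mice, 4 in each group. The control group is labelled PBS control. A further group was given SB525334, an inhibitor of the type I TGF-β receptor, at 20 mg/kg by daily gavage in CMC-Na. Another was given KN046, an antibody that binds PD-L1 and CTLA4, at 10 mg/kg by repeated intraperitoneal injection. The combination group received SB525334 and KN046 at those doses. Whether the control mice were also given CMC-Na by gavage is not given in the sources used here. The treatments were compared to ask how TGF-β receptor inhibition changes the response of the tumor to checkpoint blockade.

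Both GTPase families are part of cell-autonomous immunity. Interferon-γ, made mainly by T cells and NK cells, binds its receptor, which signals through the kinases Jak1 and Jak2. Its target genes carry gamma-activated sites (GAS) in their DNA, and others carry interferon-stimulated response elements (ISRE), which are bound by interferon regulatory factors such as Irf1. The GTPases are among the most strongly induced targets of this route in macrophages and many other cells. Guanylate-binding proteins assemble on the membranes of intracellular microbes and promote inflammasome activation. Immunity-related GTPases act on the vacuoles that hold parasites. Iigp1 (Irga6) is an effector that coats the vacuole, and Irgm1, Irgm2 and Igtp (Irgm3) are regulators that guard the membranes of the cell itself.

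The members lie in a few clusters of the mouse genome (GRCm39, GENCODE M39 annotation). Gbp5, Gbp7, Gbp3 and Gbp2 follow each other on the plus strand of chromosome 3 between 142199739 and 142343779. Gbp4 (105263633 to 105287609) and Gbp6 (105418568 to 105443751) are on the minus strand of chromosome 5. Igtp (58089840 to 58098417) and Irgm2 (58090444 to 58113615) overlap on the plus strand of chromosome 11 and Irgm1 (48752795 to 48763164) is on the minus strand of that chromosome, while Iigp1 lies apart from them. Igtp and Irgm2 share 162 exonic bases, Gbp4 shares 107 exonic bases with each of Gbp8 and Gbp9, and Gbp6 shares 1726 bases, 25.4% of its exons, with Gm43302, all on the same strand. How reads in such shared bases, or reads matching several of these similar genes, were counted is not given in the sources used here, so part of the signal may be divided between neighbors.

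Because the members moved together, the sequences before their transcription starts are shown. RefSeq windows from 250 bases before to 50 bases after the start (GRCm38.p6, a different build from the coordinates above) were given for 7 of the 10 members, 8 windows in all, since Gbp3 had more than 1 start. Gbp4, Gbp6 and Iigp1 had no entry. Each window was searched for the GAS letters TTCNNNGAA, which read the same on both strands, and for the ISRE letters GAAANNGAAA on either strand. In the windows below the matches are in capitals. Gbp2 (chr3:142620413-142620712, plus strand) and Gbp5 (chr3:142496684-142496983, plus strand) are printed as the guanylate-binding protein genes with the largest changes with KN046, and Igtp (chr11:58199306-58199605, plus strand) and Irgm2 (chr11:58214727-58215026, plus strand) as neighbors of similar sequence.
Gbp2: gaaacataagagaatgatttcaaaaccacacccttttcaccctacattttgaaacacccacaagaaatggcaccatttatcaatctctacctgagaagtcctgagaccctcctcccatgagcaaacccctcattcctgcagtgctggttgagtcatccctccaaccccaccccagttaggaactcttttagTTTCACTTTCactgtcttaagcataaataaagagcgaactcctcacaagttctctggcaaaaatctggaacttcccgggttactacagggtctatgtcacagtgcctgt
Gbp5: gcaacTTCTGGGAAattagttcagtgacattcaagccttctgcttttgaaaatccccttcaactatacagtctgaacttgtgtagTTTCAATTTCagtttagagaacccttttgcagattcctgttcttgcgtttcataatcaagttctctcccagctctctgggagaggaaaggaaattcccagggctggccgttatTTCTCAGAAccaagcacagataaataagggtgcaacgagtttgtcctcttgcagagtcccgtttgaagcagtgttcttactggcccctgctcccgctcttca
Igtp: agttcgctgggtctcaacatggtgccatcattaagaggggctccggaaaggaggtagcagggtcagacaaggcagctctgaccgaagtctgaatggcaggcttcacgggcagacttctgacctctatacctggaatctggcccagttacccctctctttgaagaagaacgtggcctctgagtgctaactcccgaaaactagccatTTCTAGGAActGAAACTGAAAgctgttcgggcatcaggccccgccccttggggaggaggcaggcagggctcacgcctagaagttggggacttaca
Irgm2: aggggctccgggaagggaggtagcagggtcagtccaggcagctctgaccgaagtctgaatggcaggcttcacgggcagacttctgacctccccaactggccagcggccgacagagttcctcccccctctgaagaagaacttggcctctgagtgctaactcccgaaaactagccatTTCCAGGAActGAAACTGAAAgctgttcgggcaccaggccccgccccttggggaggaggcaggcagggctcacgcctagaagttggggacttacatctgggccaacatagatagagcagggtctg

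An ISRE match was present in 7 of the 8 windows, and it was missing only from the downstream Gbp3 start. A GAS match was present in 4 windows, those of Gbp5, Gbp7, Igtp and Irgm2, and each of these also held an ISRE match. Over all 32851 windows of this length in the table, 3.44% held the ISRE letters, 8.3% held the GAS letters and 0.454% held both. In Igtp the GAS match began 45 bases before the start and the ISRE match 34 bases before it, while in Irgm2 they began 75 and 64 bases before it. The windows of Igtp and Irgm2 shared an unbroken run of 61 identical bases. Gbp2 held a single ISRE match 59 bases before its start, and Gbp5 held GAS matches 245 and 52 bases before it with an ISRE match at 165 bases. In Gbp3 and in Irgm1, 2 ISRE matches overlapped each other, and no GAS match overlapped an ISRE match. These are matches of letters, and binding of any factor was not measured.

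**Figure D1:**
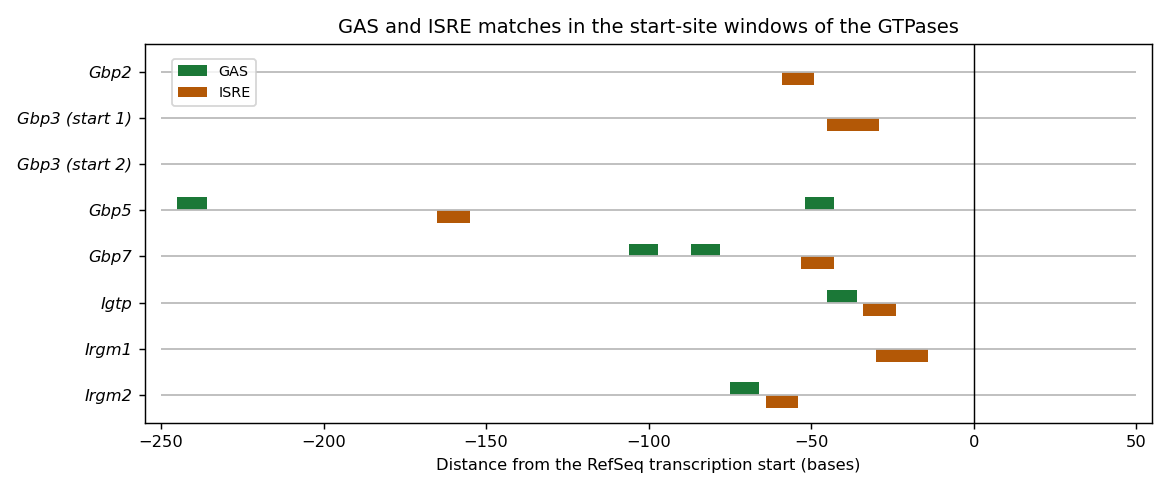
Positions of GAS matches (green) and ISRE matches (brown) in the 8 RefSeq windows of 7 GTPase genes. The x axis is the distance from the transcription start in bases, and most matches lie within the last 106 bases before it, apart from the GAS match of Gbp5 at 245 bases and its ISRE match at 165 bases.

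The total count per mouse was 18368994 to 23877131. Levels are given as CPM, the count of a gene divided by the TMM-scaled library size. Tests came from a single edgeR model of the 4 groups for 13968 genes, and a gene was called at an adjusted p (Benjamini-Hochberg) under 0.05. Control mice 1 and 2, and control mice 3 and 4, were more alike than any other pair of mice within a group (median chi-square between their counts 1.25 and 0.956, against 2.82 or more for the other pairs), and they still differed by more than sampling noise. Whether the mice of a pair share a tumor is not given in the sources used here, and if they did, control would hold 2 independent samples and not 4. Calls against control were therefore repeated with each pair summed to 1 sample. The summed level of 14 hepatocyte genes was 14930 to 17540 CPM in control and 9343 to 18770 CPM with KN046, but 641.9 to 1964 CPM with SB525334 and 171.7 to 324.7 CPM with the combination, so the tissue sampled held very different shares of liver RNA. The 8 epithelial markers were detected in every group except that Krt20 was at 0 with SB525334 and with the combination, and their summed level was 6.93 to 16.7 CPM with the combination against 151.6 to 249 CPM in control. In bulk tissue, fewer cells of a type and less RNA per cell cannot be told apart, and this holds for every level below.

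Compared per length, as CPM divided by the exon length in kilobases, Gbp2 was the most abundant of the 10 genes in each group and Gbp6 the least. In control tumors the level of Gbp2 was 58.7 ± 23.3 CPM per kb (mean ± SD, n = 4). Irgm2 followed at 27.5 ± 3.92 CPM per kb, Igtp at 17.7 ± 1.87, Irgm1 at 15.2 ± 2.02 and Iigp1 at 14.8 ± 3.33 CPM per kb. The control levels of Gbp3 and Gbp7 were 9.62 ± 2.78 and 8.98 ± 4.73 CPM per kb, and those of Gbp4, Gbp5 and Gbp6 were 4.68 ± 2.30, 4.27 ± 1.34 and 1.20 ± 0.41 CPM per kb. Gbp2, Irgm2 and Igtp were each above the gene next below them in 4 of 4 control mice. Irgm1 was above Iigp1 in 3 of 4, and Gbp3 above Gbp7 and Gbp4 above Gbp5 in 2 of 4, so these neighbors were not separated beyond the spread. With KN046 the order of the immunity-related genes changed, and Igtp, at 4.42 ± 2.83 CPM per kb, came after Irgm1 at 6.65 ± 3.37 and Iigp1 at 4.81 ± 3.98 CPM per kb. These ranges overlapped, and Iigp1 was above Igtp in only 1 of 4 KN046 mice.

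Gbp2 illustrates how the groups differed. In control mice 1 to 4 it was at 197, 207, 96.7 and 101 CPM, with SB525334 at 81.7, 65.5, 42.0 and 101 CPM, with KN046 at 21.8, 38.1, 19.3 and 56.9 CPM, and with the combination at 289, 84.8, 124.5 and 244.5 CPM. Every KN046 mouse was below every control mouse and below every combination mouse, whereas the combination mice spanned the whole control range. Gbp2 fell 4.42-fold with KN046 alone (log2 fold change -2.14 ± 0.42 SE, edgeR adjusted p = 0.0187). It was 5.46-fold higher with the combination than with KN046 (log2 fold change 2.45 ± 0.42, edgeR adjusted p = 0.000367), the largest of these changes among the 10 members.

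Gbp5, which promotes assembly of the NLRP3 inflammasome, showed the same arrangement at a lower level. It was at 40.7, 38.3, 21.6 and 23.9 CPM in control mice 1 to 4, at 17.2, 12.3, 8.99 and 18.2 CPM with SB525334, at 4.64, 11.3, 3.97 and 10.4 CPM with KN046 and at 42.2, 11.4, 24.6 and 40.8 CPM with the combination. The KN046 mice were all below the control mice, and the lowest combination mouse was just above the highest KN046 mouse. The log2 fold change was -2.03 ± 0.40 with KN046 (edgeR adjusted p = 0.0203) and 1.96 ± 0.40 for the combination against KN046 (edgeR adjusted p = 0.00186).

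Gbp7, whose product has been linked to assembly of the phagocyte NADPH oxidase, showed the widest split of the control group, with 79.5 and 77.1 CPM in mice 1 and 2 and 30.1 and 28.5 CPM in mice 3 and 4. It stood at 26.4, 23.0, 13.1 and 30.3 CPM with SB525334, 16.7, 31.0, 9.61 and 20.7 CPM with KN046 and 86.3, 21.9, 33.9 and 56.0 CPM with the combination. Both treated groups overlapped the lower control pair, and the fall with KN046 did not pass the threshold (log2 fold change -1.46 ± 0.44, edgeR adjusted p = 0.0686). Gbp4 was at 25.0 to 67.1 CPM in control, 10.8 to 25.1 CPM with SB525334, 6.09 to 19.9 CPM with KN046 and 13.6 to 76.97 CPM with the combination. Gbp3 was at 28.9 to 52.1, 11.4 to 26.2, 8.83 to 26.1 and 16.5 to 64.8 CPM in the same order of groups. Gbp6, the member with the fewest reads (24 to 260 counts per mouse), was at 5.43 to 10.7, 1.81 to 4.61, 1.28 to 3.65 and 3.37 to 13.4 CPM. For these 3 genes every KN046 mouse was below every control mouse.

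Among the immunity-related GTPases, Igtp had the tightest control group, with 87.7, 88.7, 73.4 and 73.5 CPM in mice 1 to 4. It was at 41.7, 35.1, 22.6 and 53.3 CPM with SB525334, at 9.06, 29.7, 8.997 and 32.8 CPM with KN046 and at 146.3, 37.3, 62.7 and 109.2 CPM with the combination. No treated mouse of either single agent reached the lowest control mouse, and the combination mice lay on both sides of the control group. Igtp fell 4.003-fold with KN046 (log2 fold change -2.001 ± 0.43, edgeR adjusted p = 0.0239) and was 4.41-fold higher with the combination than with KN046 (log2 fold change 2.14 ± 0.43, edgeR adjusted p = 0.00168).

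Irgm2 varied most within the KN046 group, where the mice had 10.9, 56.7, 5.03 and 46.0 CPM, an 11.3-fold range. Its control mice had 115.1, 116, 92.7 and 88.0 CPM, the SB525334 mice 61.1, 46.9, 30.1 and 77.9 CPM and the combination mice 166.2, 42.8, 82.1 and 152.6 CPM. All KN046 mice were again below all control mice, but with this spread the log2 fold change of -1.79 ± 0.55 did not pass the threshold (edgeR adjusted p = 0.0726). Irgm1, which guards host membranes and is needed for resistance to mycobacteria, moved least, at 82.4 to 108.0 CPM in control, 33.7 to 76.98 CPM with SB525334, 18.4 to 62.2 CPM with KN046 and 54.5 to 134.8 CPM with the combination.

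Iigp1 was the only member called with SB525334 alone. The control mice had 122.9, 97.6, 82.1 and 75.0 CPM, the SB525334 mice 34.6, 23.8, 15.0 and 45.7 CPM, the KN046 mice 11.6, 65.5, 12.2 and 33.2 CPM and the combination mice 113.1, 34.2, 59.6 and 103.2 CPM. Its fall with SB525334 was 3.17-fold (log2 fold change -1.67 ± 0.48, edgeR adjusted p = 0.0343), about as large as its fall with KN046 (log2 fold change -1.62 ± 0.48, edgeR adjusted p = 0.0669). No test was run of whether Iigp1 differed from other members in this respect.

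**Figure D2:**
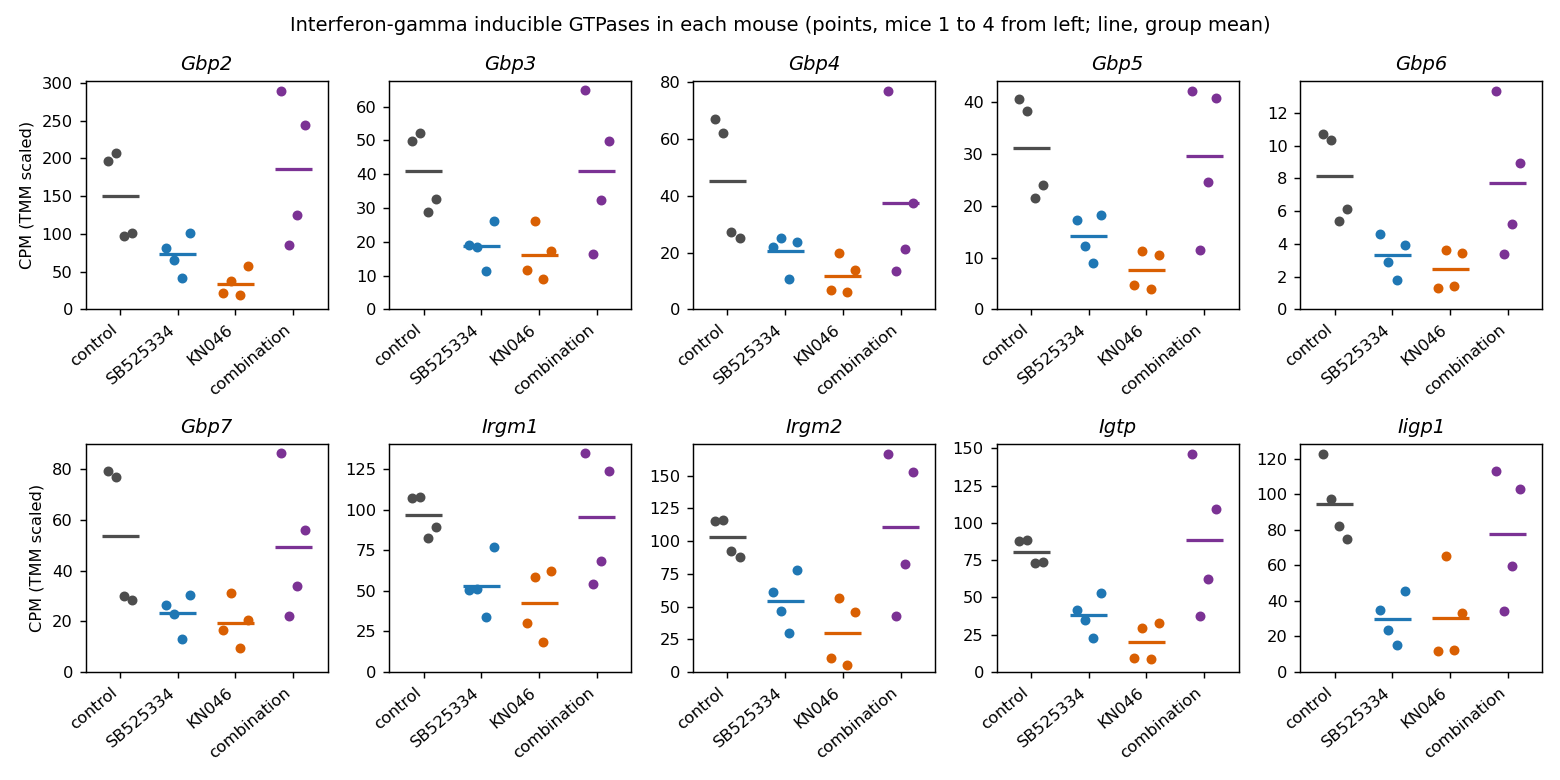
Level of each of the 10 GTPase genes in CPM (y axis, linear from 0) in the 4 mice of each group (points, mice 1 to 4 from left to right), with the group mean as a line. The KN046 mice lie below the control mice for every gene except Gbp7, and the combination mice overlap the control mice for every gene.

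KN046 alone was compared with control to ask how checkpoint blockade changed these genes. All 10 members were lower, with log2 fold changes from -2.14 (Gbp2) to -1.19 (Irgm1) and a median of -1.76, where the median over all genes tested was -0.03. Of the members, 5 of 10 passed the test as lower: Gbp2, Gbp4 (adjusted p = 0.0427), Gbp5, Gbp6 (adjusted p = 0.0407) and Igtp. Over all genes, 2.4% were called lower and 1.6% higher in this comparison. For 9 members every KN046 mouse was below every control mouse, which held for 6.65% of all genes tested. These calls depended on single mice. No member passed without KN046 mouse 1 or without KN046 mouse 3, 2 passed without any 1 of the control mice, 2 passed in a fit of only the 8 mice compared, none passed with the control pairs summed, and all 10 passed by DESeq2 or without KN046 mouse 2. In those fits all 10 log2 fold changes stayed below 0.

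With SB525334 alone, all 10 members again had estimates below control, with log2 fold changes from -1.67 (Iigp1) to -0.86 (Irgm1) and a median of -1.13 against 0.0006 over all genes. Only Iigp1 passed the test, while 9.22% of all genes were called lower and 0.394% higher. At an unadjusted p under 0.05 there were 9 members, all except Irgm2, and DESeq2 called 2. For 7 members every SB525334 mouse was below every control mouse, against 13.3% of all genes. The exceptions were Gbp2, Gbp4 and Gbp7, for which the highest SB525334 mouse exceeded the lowest control mouse. The call of Iigp1 was lost with the control pairs summed, without control mouse 1 or 2, and without SB525334 mouse 1, 2 or 3, and without combination mouse 2 there were 4 calls. In a fit of only the mice compared 7 members were called lower, with the thresholds of the study (an unadjusted DESeq2 p under 0.05 and a fold change over 2) 8 were, and with the replicate number as a block 4 were. KN046 and SB525334 were each compared with the same control mice, so these 2 sets of falls are not independent of each other. The SB525334 mice also differed from control in tissue, with hepatocyte sums of 641.9 to 1964 CPM against 14930 to 17540 CPM. In this comparison an effect of SB525334 on the genes cannot be told apart from a difference in tissue content.

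With the combination, the estimates of the members lay near control. The log2 fold changes ran from -0.28 (Gbp4 and Iigp1) to 0.30 (Gbp2), with standard errors of 0.34 to 0.53 and a median of -0.04. No member passed edgeR's test, none had an unadjusted p under 0.05, and DESeq2 called none, whereas 9.74% of all genes were called lower and 1.37% higher. For each member the 4 combination mice overlapped the 4 control mice. The standard errors exceeded every estimate, and larger changes could also go uncalled with these mice. With SB525334 alone, falls of 2.07-fold for Gbp2 and 2.32-fold for Gbp7 did not pass (edgeR adjusted p = 0.135 and 0.103). A return to the control level was therefore not shown.

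The combination was set against KN046 alone, so the groups differed in whether SB525334 was given. They also differed in the tissue sampled, with hepatocyte sums of 171.7 to 324.7 CPM with the combination and 9343 to 18770 CPM with KN046. An effect of SB525334 on the genes cannot be told apart here from a difference in tissue content. All 10 members were higher, with log2 fold changes from 1.17 (Irgm1) to 2.45 (Gbp2) and a median of 1.67 against 0.0008 over all genes. Of these, 9 of 10 passed, and Iigp1 did not (log2 fold change 1.34 ± 0.48, edgeR adjusted p = 0.0516). In this comparison 9.89% of all genes were called higher and 14.5% lower. Every combination mouse was above every KN046 mouse for 3 members, Gbp2, Gbp5 and Igtp, against 7.9% of all genes. Without KN046 mouse 1 the number of members that passed was 4, in the fit of these 8 mice alone it was 5, and with the control pairs summed it remained 9.

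Against SB525334 alone, the combination also had higher estimates for all 10 members, with log2 fold changes from 0.85 (Irgm1) to 1.381 (Iigp1) and a median of 1.11. None passed edgeR's test, where 0.544% of all genes were called higher and 3.03% lower. The smallest adjusted p was 0.0883, for Gbp2, an unadjusted p under 0.05 was found for 8 members, and DESeq2 called none. No member had every combination mouse above every SB525334 mouse, which held for 2.43% of all genes. Without combination mouse 2, the lowest of its group, 3 members passed, and 7 did with the thresholds of the study.

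**Figure D3:**
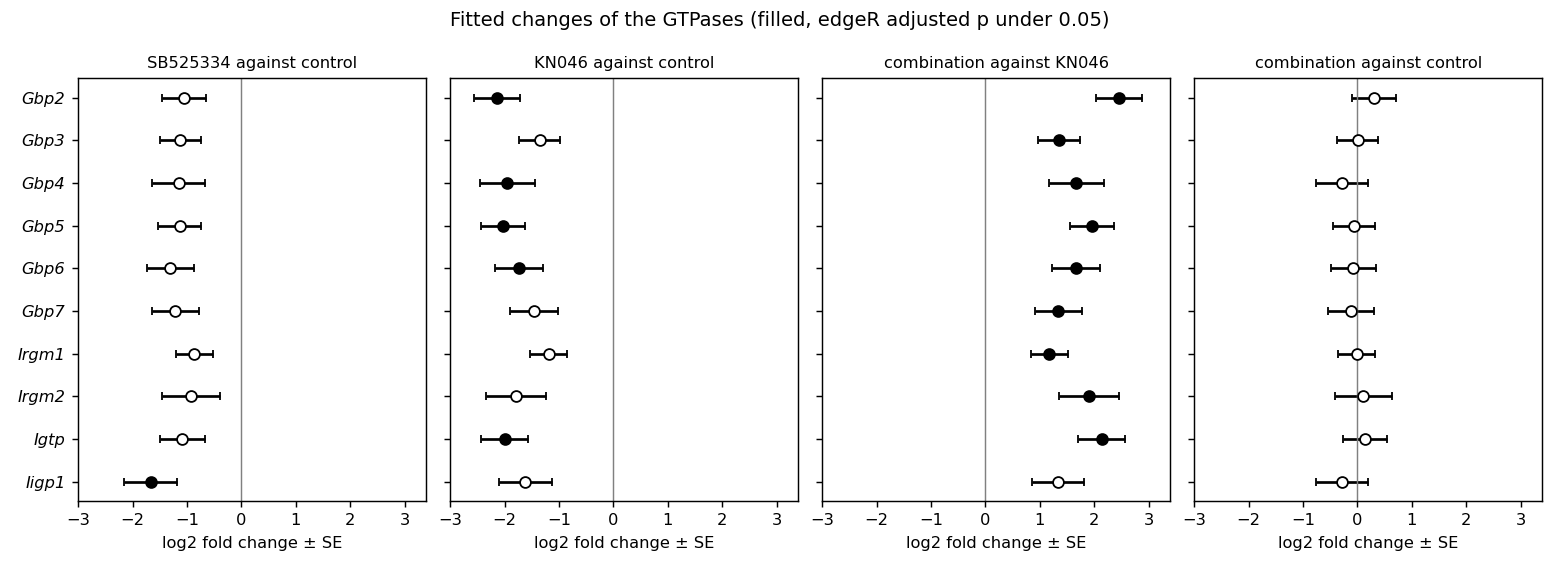
Log2 fold change (x axis, with the standard error as a bar) of each GTPase gene (y axis) in 4 comparisons, with filled points for an edgeR adjusted p under 0.05. All points lie below 0 with SB525334 and with KN046 against control, above 0 for the combination against KN046, and from -0.28 to 0.30 for the combination against control.

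The interaction tests whether the change with SB525334 differed between mice that did and did not receive KN046. It is the log2 difference of combination and KN046 minus the log2 difference of SB525334 and control. The estimates for SB525334 were below 0 without KN046, where 1 of 10 passed, and above 0 with it, where 9 of 10 passed. The interaction was above 0 for all 10 members and passed for all 10. It was largest for Gbp2 (3.50 ± 0.58, edgeR adjusted p = 0.00159), Igtp (3.22 ± 0.60, adjusted p = 0.00417) and Gbp5 (3.10 ± 0.56, adjusted p = 0.00307) and smallest for Irgm1 (2.04 ± 0.49, adjusted p = 0.0221). Over all genes, 1.73% were called higher and 2.55% lower in this test, with a median of 0.0093 against 2.90 over the members. With the control pairs summed 5 members passed, and without combination mouse 4 there were 6. Of 14 hepatocyte genes, 12 were called lower in the interaction, with a median of -5.91. An interaction of the drugs on the members cannot be told apart here from differences in tissue content.

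Within groups, the same mice were high or low for most members, while the order inside the upper or lower pair varied from gene to gene. In control, mice 1 and 2 were above mice 3 and 4 for all 10 genes, by a ratio of 1.2 (Igtp) to 2.67 (Gbp7) between the means of the pairs. Mouse 1 was the highest for 5 genes and mouse 2 for the other 5. With SB525334, mouse 3 was the lowest for all 10 and mouse 4 the highest for 8. With KN046, mice 2 and 4 were above mice 1 and 3 for all 10, and mouse 2 was the highest for 7. With the combination, mouse 1 was the highest and mouse 2 the lowest for all 10. The mean log2 CPM over the members ranged from 5.35 to 6.14 in control, from 3.86 to 5.09 with SB525334, from 2.93 to 4.73 with KN046 and from 4.55 to 6.45 with the combination. The ratio of the highest to the lowest mouse was 1.21 to 2.79 in control, 2.03 to 3.04 with SB525334, 2.85 to 11.3 with KN046 and 2.48 to 5.67 with the combination.

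The genes upstream of the GTPases were examined next. For the counts in this and the following groups, 2.4% of all genes were called lower with KN046 and 9.22% lower with SB525334. For the combination against KN046, 9.89% of all genes were called higher, and in the interaction 1.73% were. Ifng itself had 0 to 16 counts per mouse and was not tested: it had 0 counts in 3 of 4 KN046 mice and 16 counts in combination mouse 1, and at this depth no difference could be read. Transcripts of the receptor and kinases were easily detected. Ifngr1 and Ifngr2, the receptor chains, were at 109.9 ± 4.99 and 68.2 ± 3.63 CPM in control, and only Ifngr2 fell with KN046 (log2 fold change -0.44, edgeR adjusted p = 0.0424). Both were higher with the combination than with KN046, by 0.37 and 0.55 on the log2 scale (adjusted p = 0.00818 and 0.00169). Jak1 and Jak2, with log2 fold changes of 0.12 and 0.09 with KN046, and Ptpn2, a phosphatase that limits the signal (0.02), did not pass in any comparison.

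Irf1, an interferon regulatory factor that is itself induced by interferon-γ, was arranged like the GTPases. It was at 140.2, 140.4, 122.7 and 120.8 CPM in control mice 1 to 4, at 99.5, 107.5, 70.9 and 108.2 CPM with SB525334, at 25.7, 66.2, 28.6 and 94.8 CPM with KN046 and at 187.2, 96.3, 122.9 and 185.9 CPM with the combination. Both single treatments left every mouse below every control mouse, which held for 13.3% of all genes with SB525334 and 6.65% with KN046, and KN046 mice 1 and 3 were again the lowest. The estimate for Irf1 with SB525334 did not pass (log2 fold change -0.44, edgeR adjusted p = 0.525). Irf1 and Irf8, a regulatory factor of myeloid cells, fell with KN046, with log2 fold changes of -1.28 and -1.003 (edgeR adjusted p = 0.04 and 0.0166), and were higher with the combination than with KN046 (1.46 and 0.79, adjusted p = 0.00358 and 0.00611). Socs1, a feedback inhibitor of the pathway, was higher with the combination than with KN046 (1.35, adjusted p = 0.00234), and its estimate with KN046 was -0.93 (adjusted p = 0.0706). Irf9 and Socs3 did not pass in any comparison. In all, 3 of 10 tested genes of this group fell with KN046, 5 rose with the combination against KN046 and 2 passed the interaction.

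Other targets of interferon-γ followed a similar course. Of 18 genes, 9 were lower with KN046, 13 were higher with the combination than with KN046 and 13 passed the interaction, with median log2 fold changes of -1.15, 1.15 and 1.92. The chemokine Cxcl9, which attracts T cells, was at 61.9 ± 18.4 CPM in control, 36.4 ± 15.2 with SB525334, 12.1 ± 8.05 with KN046 and 68.5 ± 25.9 CPM with the combination. It fell with KN046 by 2.35 on the log2 scale (edgeR adjusted p = 0.017). Cxcl10, a chemokine of the same receptor, fell with KN046 (-1.38, adjusted p = 0.0239) and also with SB525334 (-1.13, adjusted p = 0.0132). The immunoproteasome genes Psmb9 and Psmb10 fell with KN046 by 1.04 and 1.25 (adjusted p = 0.0166 and 0.00452), and Psmb10 was 1.63 higher with the combination than with KN046 (adjusted p = 1.72e-06). Ciita, the regulator of MHC class II genes, fell with KN046 by 1.94 (adjusted p = 0.0269). Cd274, which encodes PD-L1, fell with SB525334 by 1.26 (adjusted p = 0.00681) and was higher with the combination than with SB525334 (1.19, adjusted p = 0.0249). Without KN046 mouse 1, 1 of these 18 genes was called lower with KN046, and with the control pairs summed none was. With the pairs summed, the adjusted p with SB525334 was 0.0334 for Cd274 and 0.0757 for Cxcl10, and 8 of the 18 passed the interaction.

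Of 14 other tested GTPases, 5 were lower with KN046, 5 were lower with SB525334 and 5 were higher with the combination than with KN046. The paralogs Tgtp1 and Tgtp2, which encode T-cell-specific GTPases (Irgb6), fell by 2.82 and 2.35 with KN046 (edgeR adjusted p = 0.023 and 0.0254) and were higher by 2.61 and 2.42 with the combination than with KN046 (adjusted p = 0.00309 and 0.00261). They are near-identical genes whose reads may be divided. Gbp10 fell with KN046 (-2.77, adjusted p = 0.0274) and with SB525334 (-1.91, adjusted p = 0.0428). Ifi47 (Irgd) fell with KN046 by 1.24 (adjusted p = 0.0436), and Gbp8 by 1.49 (adjusted p = 0.046). Gbp11 and Iigp1c fell with SB525334 by 2.21 and 1.77 (adjusted p = 0.00559 and 0.0303), as did F830016B08Rik by 3.22 (adjusted p = 0.0372). Gbp11 was also lower with the combination than in control (-1.67, adjusted p = 0.0333), a comparison in which none of the 10 members was called. It had 22 to 34 counts per mouse in control, 5 to 10 with SB525334 and 4 to 18 with the combination. Gbp10 had 3 to 18 counts with KN046 and F830016B08Rik 0 to 22 with SB525334, so these estimates rest on few reads. With the control pairs summed, Gbp11 alone of these 14 GTPases was called lower with SB525334 (adjusted p = 0.0318), its adjusted p for the combination against control was 0.13, none of the 14 was called lower with KN046, and none of the 10 receptor and signal genes was.

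Of 16 targets of type I interferon, none was called lower and 1, Ifit2, was called higher with KN046 (0.62, edgeR adjusted p = 0.0336). The median log2 fold change of the 16 was -0.09 with KN046 and -0.19 for the combination against KN046, where Ifit2 was lower (-0.54, adjusted p = 0.0146). With SB525334 all 16 estimates were below 0, with a median of -0.86, and Irf7 fell by 1.32 (adjusted p = 0.0245). For the combination against SB525334 all 16 were above 0, with a median of 0.74, and none passed edgeR's test, although 5 had an unadjusted p under 0.05. The interaction was above 0 for 14 of 16, with a median of 0.74, where none passed in edgeR and 2 had an unadjusted p under 0.05. With the control pairs summed none of the 16 was called against control, and the adjusted p was 0.239 for Ifit2 with KN046 and 0.111 for Irf7 with SB525334. Several of these genes also respond to interferon-γ, and no test compared this group with the GTPases.

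Of 20 tested genes whose products work with the GTPases, 2 were lower with KN046, the inflammasome genes Casp1 (-0.84, edgeR adjusted p = 0.0499) and Nlrp3 (-1.03, adjusted p = 0.0401). Both passed the interaction (1.26 and 1.46, adjusted p = 0.0341 and 0.0296). With the control pairs summed, none of the 20 was called with KN046 or in the interaction. With the combination against KN046, where 9.89% of all genes were called higher and 14.5% lower, 5 of the 20 were higher and 1 was lower. Among those that rose were Trim21, a ubiquitin ligase (0.85, adjusted p = 0.0168), Nlrp3 (0.76, adjusted p = 0.0419) and Gsdmd, the pore-forming target of inflammatory caspases (0.33, adjusted p = 0.0461). The autophagy genes Atg3, Atg5, Atg7, Atg12 and Atg16l1, needed to load GTPases on vacuoles, had log2 fold changes from -0.20 to 0.21 with KN046. None of these 5 was called in the comparisons made. Of the related genes on the list, Gabarap and Gabarapl2 were higher with the combination than with KN046 (0.49 and 0.48, edgeR adjusted p = 0.047 and 0.018) and Gabarapl1 was lower (-0.53, adjusted p = 0.0199).

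**Figure D4:**
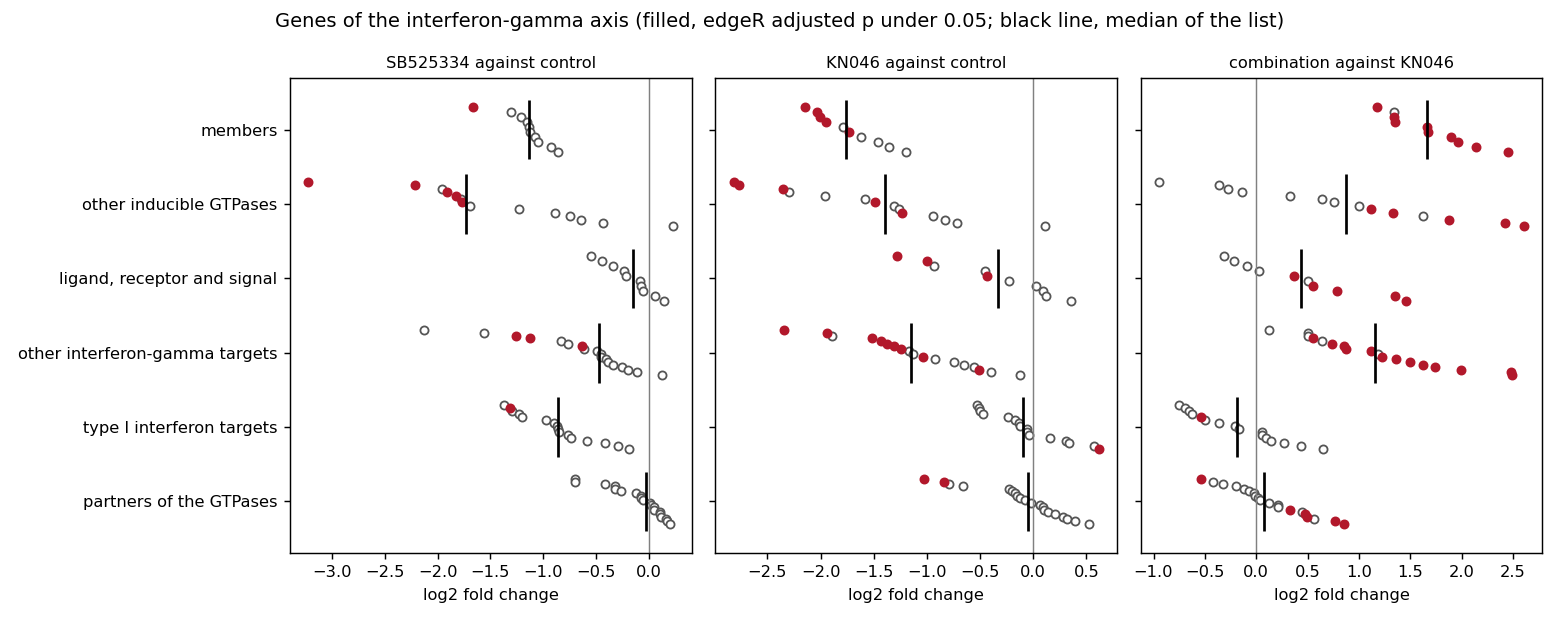
Log2 fold change (x axis) of each tested gene in 6 groups of genes (y axis) in 3 comparisons, with red points for an edgeR adjusted p under 0.05 and a black line at the median of the group. With KN046 the medians are -1.76 for the 10 members and -1.15 for the other interferon-γ targets, and -0.09 for the type I interferon targets.

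Over the 16 mice, the genes whose log2 CPM was most like the mean of the members were Gm12185 (Pearson r = 0.977), Tgtp1 (0.970), Batf2 (0.962), Tgtp2 (0.959) and Ifi47 (0.956). After the mean of each group was subtracted, the highest values were those of Gm12185 (0.970), Batf2 (0.956), Gvin2 (0.944), Parp14 (0.940) and Ciita (0.94). Both times the genes were picked for the highest r among all genes, so high values follow from the choice. Only Gm12185 and Batf2 were picked both times. For Tgtp1, Tgtp2 and Ifi47 no value after subtraction is given, so whether their resemblance held among mice given the same treatment is not shown. These correlations describe the same 16 libraries and carry no p-value. Of the members, Gbp5 was closest to the mean over the 16 mice (0.989) and Gbp7 the farthest from it (0.95). Each member is part of that mean, so these values are partly built in and cannot be set against those of other genes. Gm12185 was on none of the lists above. Its log2 fold changes, which the choice by likeness bears on and which are given with no test, were -1.62 with KN046 and 1.54 for the combination against KN046.

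Markers of T cells moved with the members. The summed level of 7 T cell markers was 35.7, 37.7, 33.8 and 32.6 CPM in control mice 1 to 4, 30.7, 20.3, 17.5 and 25.9 CPM with SB525334, 9.91, 19.4, 6.99 and 12.8 CPM with KN046, and 48.8, 26.8, 30.7 and 57.4 CPM with the combination. None of the 7 was at 0 in a group. KN046 mouse 3 and combination mouse 2, the lowest mice for these sums in their groups, were also low for the GTPases, and in the KN046 group mice 2 and 4 were above mice 1 and 3 for the markers as for the GTPases. The control mice, which split for the GTPases, lay between 32.6 and 37.7 CPM for these markers. Of the 7 markers, 5 were lower with KN046, 7 were higher with the combination than with KN046 and 6 passed the interaction, with medians of -1.57, 1.62 and 2.2. With the control pairs summed, none was called lower with KN046 and 7 were still higher with the combination than with KN046. The paper reports the opposite direction for KN046 alone, with more CD8+ and CD4+ T cells in liver metastases by flow cytometry. CD4+ cells with interferon-γ were also more frequent there, while CD8+ cells with interferon-γ or with granzyme B did not change significantly. For SB525334 alone the paper found no rise in CD4+ or CD8+ cells. For the combination it found a rise in both, and in the cells of each type that held interferon-γ. Its CD8+ values are proportions of CD45+ cells, a measure unlike marker RNA in bulk tissue. The reason for the difference in direction with KN046 alone was not tested. For NK cells 3 of 6 markers could be tested, and Ncr1, Klrb1c, Klrk1, Nkg7, Eomes and Klra8 summed to 14.9 to 16.1 CPM in control, 11.1 to 14.7 CPM with SB525334, 5.03 to 13.95 CPM with KN046 and 13.7 to 22.4 CPM with the combination. Of the 3 NK cell markers tested, 1 was lower with KN046, 1 was higher with the combination than with KN046 and 1 passed the interaction. With the control pairs summed, 0 were called lower with KN046. The part of these cells in the changes of the GTPases was not tested.

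The summed level of 8 macrophage markers was 1566 to 1677 CPM in control, 1448 to 2267 with SB525334, 757 to 1572 with KN046 and 1537 to 2236 CPM with the combination. None of the 8 passed in SB525334 or KN046 against control by edgeR, and 4 were higher with the combination than with KN046. The 6 neutrophil markers summed to 99.96 to 130.6 CPM in control, 0.52 to 9.60 with SB525334, 5.30 to 10.8 with KN046 and 1.31 to 160.6 CPM with the combination, where mouse 4 alone had 160.6 CPM. Ly6g was at 0 in the SB525334 group. Of these 6, all 6 fell with SB525334 and 3 with KN046, and all 6 passed the interaction as higher. The 5 Kupffer cell markers fell with SB525334 and with the combination (5 of 5 each) and none was called with KN046, and 13 of 14 hepatocyte genes did likewise. With the control pairs summed, 6 neutrophil markers were called lower with SB525334 and none with KN046, and 5 Kupffer cell markers and 13 hepatocyte genes were called lower with SB525334 and with the combination. No dendritic cell marker was called by edgeR in the 6 comparisons.

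Some other markers split in the control mice as the GTPases did, higher in mice 1 and 2 than in mice 3 and 4. The 6 endothelial markers summed to 229.5, 227.3, 88.2 and 90.1 CPM in control mice 1 to 4, the Kupffer cell markers to 312.6, 331.2, 161.9 and 164 CPM and the 6 dendritic cell markers to 77.3, 81.5, 49.8 and 50.9 CPM. The erythroid markers split likewise, at 128.5, 141.9, 73.0 and 76.4 CPM. Other sums were lower in mice 1 and 2 than in mice 3 and 4. These were the hepatocyte (14930, 15240, 17250 and 17540 CPM) and epithelial markers (151.6, 155.4, 249 and 237.8 CPM). The neutrophil (105.2, 99.96, 120.2 and 130.6 CPM) and macrophage markers (1566, 1598, 1632 and 1677 CPM) were so too. The treated groups had 33.6 to 75.7 CPM of the endothelial markers with SB525334, 174.3 to 233.5 CPM with KN046 and 79.4 to 100.5 CPM with the combination. All 6 endothelial markers fell with SB525334, and 5 did with the control pairs summed. The part of these differences in cell content in the results was not tested.

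**Figure D5:**
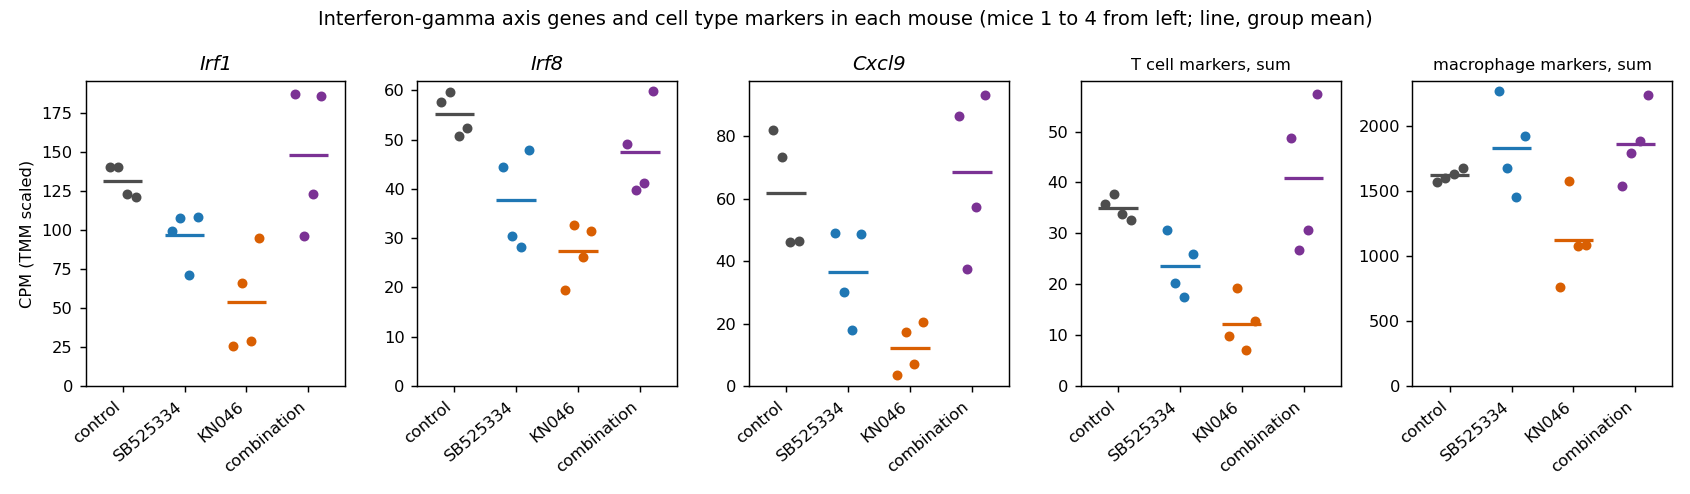
CPM (y axes, linear from 0) of Irf1, Irf8 and Cxcl9 and of the summed T cell (7 genes) and macrophage (8 genes) markers in the 4 mice of each group (points, mice 1 to 4 from left to right; line, group mean). T cell markers are lowest with KN046 (6.99 to 19.4 CPM) and highest in combination mice 1 and 4 (48.8 and 57.4 CPM), the mice of that group in which the GTPases were also highest.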

How the data were processed

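RNA of liver metastasis tissue from 16 mice was sequenced, 1 library per mouse, and groups were taken from the treatment labels. Per the labels and the methods, the authors used Cutadapt 2.7 for trimming, HISAT2 2.2.1 for alignment (GRCm39) and HTSeq 2.0.4 for counting, and the deposited raw counts are per gene. Strand and multiple-alignment settings are not given in the sources used here. The deposited normalized tables, named with DESeq2 1.38.3, were not used. Gene names came from GENCODE M39 (21770 of 21959 identifiers).

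The tests used edgeR 4.0.16 (R 4.3.3). Low counts were removed by filterByExpr at a setting of 10 counts, libraries were scaled by TMM, and glmQLFTest was run on 1 model of the 4 groups, with Benjamini-Hochberg adjustment over 13968 genes. The biological coefficient of variation was 20.1%. P-values treat the 4 mice of a group as independent, although the control pairs were very similar and may not be independent. The code was checked on simulated counts. Alternatives were DESeq2 1.42.0, the study's thresholds (DESeq2 p under 0.05 and fold change over 2), other scalings, other filters, fewer mice, a replicate block, summed control pairs and each mouse left out.

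The members and gene lists were chosen with earlier results of these data known. Named genes were the members, genes of the lists called in at least 1 comparison, all genes of the ligand, receptor and signal list, and the 5 genes most like the members. A gene of that list is not reported here and was left out of the list, its counts and the likeness. The Atg genes were named after their values were seen.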

Additional observations from a re-analysis of the deposited data

Results flagged for a closer look

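The change with SB525334 differed between mice with and without KN046 for each of the 10 members, by the interaction term of the edgeR fit. The difference of the log2 changes was 3.50 for Gbp2, 2.48 for Gbp3, 2.83 for Gbp4, 3.10 for Gbp5, 2.96 for Gbp6, 2.56 for Gbp7, 2.04 for Irgm1, 2.83 for Irgm2, 3.22 for Igtp and 3.003 for Iigp1, with edgeR adjusted p-values from 0.00159 to 0.0454. Over the alternative settings with a test these values kept their sign, and Irgm2 passed in 11 of 25 settings. The tissue sampled also differed between the groups, so an effect on the genes cannot be told apart from tissue content. Among 40 sets of 4 mice, 10 genes in 4 groups, no mouse stood apart from the other 3 by Dixon's criterion. With 4 mice this criterion cannot flag a split into pairs such as that of the control mice, and the 10 genes moved together. It does not show that no mouse was influential, since the number of calls changed when single mice were left out.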

How the results depend on the processing

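All 10 members kept the direction given above with SB525334, with KN046, for the combination against KN046 or SB525334 and in the interaction, in every setting tried, while the number that passed the threshold varied and the cause was not tested except where fewer mice entered the fit. For KN046 against control 5 members were called lower. The number was 10 with DESeq2 and with the study's thresholds, 3 with total counts only, 2 in a fit of only the mice compared and 0 with the similar control pairs merged (fewer samples). With each mouse left out it was 0 to 10: 0 without KN046 mouse 1 or 3, 2 without any 1 control mouse, and 3 without SB525334 mouse 1 or combination mouse 4. For SB525334 against control 1 member was called lower, against 2 with DESeq2, 8 with the study's thresholds, 0 with total counts only, 7 with only the mice compared, 0 with the control pairs merged and 0 to 4 with a mouse left out. For the combination against KN046 the 9 calls became 5 with only the mice compared and 4 to 10 with a mouse left out. For the combination against SB525334, where none was called, there were 7 with the study's thresholds and 0 to 3 with a mouse left out. The 10 interaction calls became 5 with the control pairs merged and 6 to 10 with a mouse left out, and could not be fitted with fewer groups. No member was called for the combination against control in any setting, and with a mouse left out there were 0.

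Of 24 correlations between same-numbered mice of different groups, 7 were over 0.1, with a range of -0.37 to 0.407. No such values were computed for mice of different numbers, so whether the replicate numbers pair the mice was not settled. With the replicate number as a replicate block 9 members were called lower with KN046, 4 lower with SB525334, 10 higher for the combination against KN046, 1 higher for the combination against SB525334 and 10 in the interaction.

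The settings for the gene lists were chosen after seeing the data. Over all genes, 0 were called with KN046 with the control pairs merged and 75 with only the mice compared. With a mouse left out, 21 to 2096 of all genes were called with KN046. With the control pairs merged, KN046 gave 0 lower calls among T cell, ligand, receptor and signal, other GTPase, other interferon-γ target and partner genes. With only the mice compared, the lower calls of these lists were 2, 1, 2, 3 and 0 in that order. With the study's thresholds there was 1 for ligand, receptor and signal, 10 for the other GTPases and 1 for the partners, and total counts only gave 3 for the other GTPases and 0 for the partners. The partners had 1 with DESeq2 size factors, upper quartile scaling, no filter or a filter of 1 CPM. With a mouse left out the ranges were 0 to 7 for T cells, 0 to 4 for ligand, receptor and signal, 0 to 11 for the other GTPases, 1 to 11 for the other targets, 0 to 3 for the partners and 0 to 2 for the type I targets. For the combination against KN046 the other GTPases had 3 with only the mice compared and with the control pairs merged, and ligand, receptor and signal had 2 with the study's thresholds. The partners had 0 with the study's thresholds, 3 with total counts only, 0 with only the mice compared and 2 with the control pairs merged. With a mouse left out the ranges were 6 to 7 for T cells, 5 to 6 for ligand, receptor and signal, 3 to 8 for the other GTPases, 11 to 14 for the other targets, 0 to 5 for the partners and 0 to 3 for the type I targets.

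Estimates for the combination against control changed sign between settings for 8 members, and not for Gbp2 (0.03 to 0.55 over all settings) or Iigp1 (-0.50 to -0.03). With a mouse left out the log2 fold change was -0.29 to 0.27 for Gbp3, -0.89 to 0.0042 for Gbp4, -0.26 to 0.21 for Gbp5, -0.45 to 0.18 for Gbp6, -0.51 to 0.13 for Gbp7, -0.21 to 0.19 for Irgm1, -0.13 to 0.39 for Irgm2 and -0.19 to 0.40 for Igtp. For Gbp3 it was -0.0036 with a filter of 1 CPM and -0.0022 with only the mice compared. The counts limit Gbp6 most, with 24 to 260 per mouse.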
